A study of Mus musculus with 22 samples.

Results

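The cells described here were chosen by genes of the retinal pigment epithelium (RPE) from single-cell libraries whose labels give the tissue as retina. A cell was chosen when its value was above 0 for at least 4 of 8 genes, namely Rpe65, Rgr, Best1, Lrat, Rdh5, Tyrp1, Pmel and Mlana, and was 0 for Aqp4, a Müller glia gene, and Cldn5, an endothelial gene. The rule picked 57 of 26764 cells, a share of 0.213% (95% exact binomial interval 0.161 to 0.276%). Because these values selected the cells, the levels of the 8 genes in them are given as a description without a test.

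The RPE is a single sheet of pigmented cells between the photoreceptors and the choroid. It turns all-trans retinol back into 11-cis retinal in the visual cycle, engulfs the shed tips of outer segments, carries ions, lactate, amino acids and water across the sheet, and secretes proteins on both of its faces. AdipoR1, the product of Adipor1, is a membrane receptor for adiponectin that is found in photoreceptors and in the RPE.

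WT and AdipoR1–/– (KO) mice of the C57BL/6J strain were compared, the KO carrying the backcrossed Adipor1 tm1Dgen allele. Each single-cell library pooled 4 retinae, and there was 1 library per genotype at P19, P25 and P30, so that cells are not replicates and no p-value is given for them. Each genotype had 4 bulk RNA-Seq libraries of either tissue, all taken at P30, and those of WT and KO RPE and WT retina are used here. For the bulk RPE, cells were shaken off posterior eyecups, choroid and sclera were taken out, and the RPE cells were pelleted.

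The libraries differed in ways other than genotype. They held 5439 (WT P19), 5300 (KO P19), 4367 (WT P25), 5633 (KO P25), 2558 (WT P30) and 3467 cells (KO P30), with medians of 3407, 3568, 4357, 2523, 1416 and 1349 unique molecular identifiers (UMIs, 1 per captured RNA molecule) per cell. In the WT P25 library Xist, a transcript of the inactive X chromosome, reached 3013 CPM (counts per 1000000) and the Y-linked Ddx3y had 0 UMIs, whereas the other 5 libraries had Ddx3y at 71.9 to 97.2 CPM and Xist at 0.187 CPM or less. Sex and genotype therefore cannot be told apart at P25. The P30 libraries were sequenced on another instrument than those of P19 and P25, and age and instrument cannot be told apart. Adipor1 over all cells stood at 104 (WT) and 26.3 CPM (KO) at P19, 101 and 39.5 at P25, and 321 and 62.0 at P30. Cell barcodes were shared by at least 2 libraries in 49 cases, 15 of them between the P30 libraries, and 0 of the chosen cells carried such a barcode.

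Chosen cells were rare in every library. They numbered 14 in WT P19, or 0.257% (0.141 to 0.431%), and 22 in KO P19, or 0.415% (0.260 to 0.628%). At P25 they numbered 4 in WT, or 0.0916% (0.0250 to 0.234%), and 3 in KO, or 0.0533% (0.0110 to 0.156%). At P30 there were 7 in WT, or 0.274% (0.110 to 0.563%), and 7 in KO, or 0.202% (0.0812 to 0.416%). The intervals of WT and KO overlapped at each age, and like all intervals on single cells given here they cover counting error only. The chosen cells held 231242 UMIs in all, with 834 to 26830 per cell and a median of 1940, against a median of 2669 in the other cells. Per library they summed to 106717 (WT P19), 51983 (KO P19), 8604 (WT P25), 12831 (KO P25), 34558 (WT P30) and 16549 UMIs (KO P30).

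**Figure D1:**
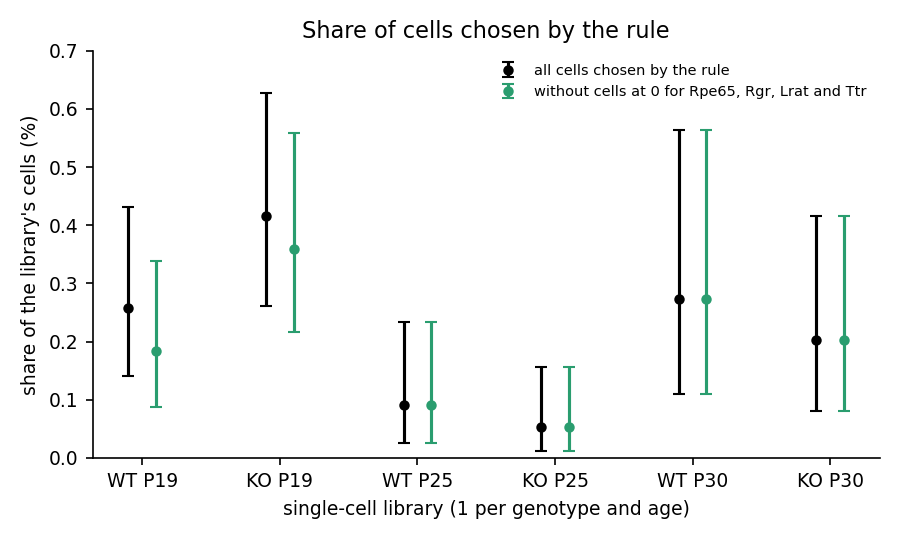
Share of each single-cell library's cells chosen by the rule (black), and the same without the 7 cells at 0 for Rpe65, Rgr, Lrat and Ttr (green), in percent with 95% exact binomial intervals. The black points run from 0.0533% in KO P25 to 0.415% in KO P19, and the WT and KO intervals overlap at each age.

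Of the 8 genes that selected the cells, 7 were found widely and Best1 was not. Rdh5, which oxidises 11-cis retinol, was found in 55 of 57 cells (96.5%), Rgr, a light-driven retinal isomerase of the RPE, in 49 (86.0%), Lrat, which makes retinyl esters, in 40 (70.2%), and Rpe65, the isomerase of the visual cycle, in 39 (68.4%). Among the pigment genes, the melanin enzyme gene Tyrp1 was found in 40 cells (70.2%), Pmel, which builds the fibrils of the melanosome, in 32 (56.1%), and Mlana, a melanosome membrane protein, in 26 (45.6%). Best1, an anion channel of the basal RPE membrane, had 1 UMI in 1 cell (1.75%), so this marker did not serve to pick out cells here. It stood near 1 CPM in the bulk RPE of either genotype too, though still above WT retina in WT RPE (log2 1.15). As a measure of free RNA, the same genes were counted in 234 cells with endothelial markers (median 9648.5 UMIs) and 116 with microglial markers (median 4555 UMIs). Rpe65, Rgr and Lrat were found in 0 of the 234 and 0 of the 116, which allows shares of up to 1.56% and 3.13% (exact 95% limits), Pmel in 0.855% and 0.862%, and Rdh5 in 9.83% of the endothelial cells. Best1 was found in 0.862% of the microglial cells.

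Around the threshold, 23 chosen cells had exactly 4 of the 8 genes (834 to 26830 UMIs, median 2309), and 21 cells with Aqp4 and Cldn5 at 0 had 3 and were left out (755 to 9236 UMIs, median 1528). Ttr, which encodes the retinol carrier transthyretin, was high in 15 of the 23 and in 7 of the 21. A further 10 cells had at least 4 genes but also a UMI of Aqp4 or Cldn5, and these were deep cells of 6261 to 44016 UMIs, 1 of them with high Ttr. Rpe65, Rgr, Lrat and Ttr were all at 0 in 7 of the 23, 12 of the 21 and 9 of the 10, so the number of cells without Ttr depends on the rule. At the other end, 20 cells had 5 of the genes, 9 had 6, 4 had 7, and 1 had all 8.

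The chosen cells were not of a single kind. Ttr was not used by the rule, and it parted them: 48 cells had at least 107.9 Ttr UMIs per 10000 UMIs (median 544, highest 1772) and are called Ttr-rich here. They numbered 9 (WT P19), 19 (KO P19), 4 (WT P25), 3 (KO P25), 6 (WT P30) and 7 (KO P30). Another 7 cells, 4 of WT P19 and 3 of KO P19, had 0 UMIs of Ttr, Rpe65, Rgr and Lrat, and are called the cells without Ttr. The last 2 cells had little Ttr. One from WT P19 had 15743 UMIs and 171 of Calb2, a calcium-binding protein of amacrine and ganglion cells, and one from WT P30 had 10356 UMIs.

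The 7 cells without Ttr were few but deep. They had 26830, 17544, 13840 and 9560 UMIs in WT P19 and 8769, 5957 and 1302 in KO P19. Together they gave 83802 UMIs, which is 36.2% of all UMIs of the chosen cells, 63.5% of those of WT P19 and 30.8% of those of KO P19. Values at P19 below are therefore those of the Ttr-rich cells, unless all chosen cells are named.

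**Figure D2:**
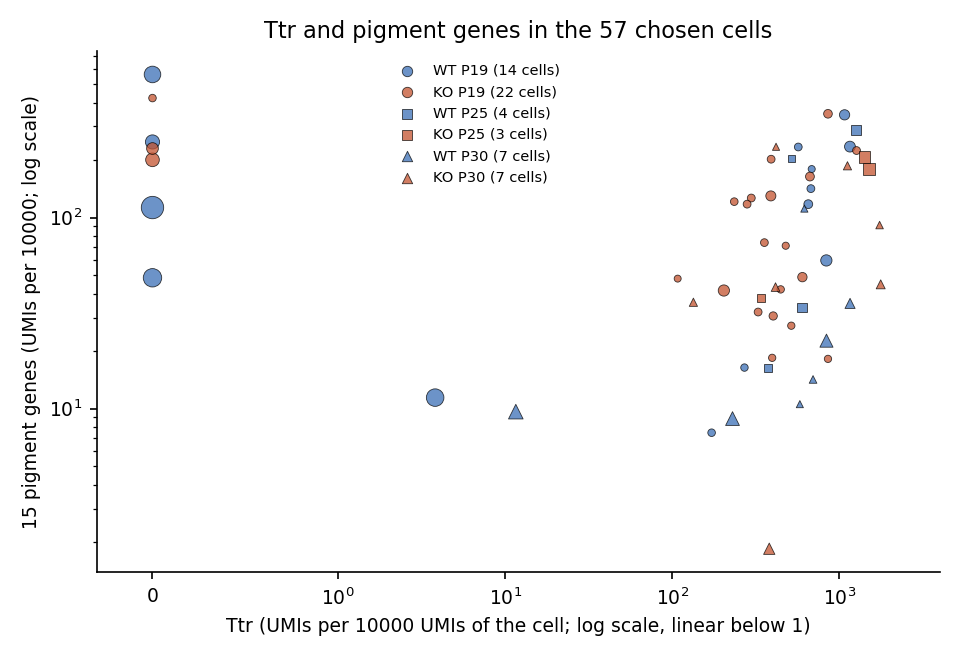
Each of the 57 chosen cells by its Ttr (x) and its 15 summed pigment genes (y), both in UMIs per 10000 UMIs of the cell on log scales (x linear below 1), with colour for genotype, shape for age and symbol size for the cell's UMIs. The 7 cells without Ttr stand at 0 on the x axis and all come from P19, whereas the 48 Ttr-rich cells lie at 107.9 or more.

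The way the cells were chosen and parted fixes much of how the 2 kinds differ. A chosen cell at 0 for Rpe65, Rgr and Lrat had to carry at least 4 of Rdh5, Best1, Tyrp1, Pmel and Mlana, so pigment transcripts in the cells without Ttr, and their lack of the 4 genes, are no findings. All 7 cells without Ttr are of P19, so they are set here beside the 28 Ttr-rich cells of P19, a choice made after the data were seen. Over the 7 listed visual-cycle genes that were used neither to choose nor to part the cells, the Ttr-rich cells of P19 had 13473 CPM, the cells without Ttr 680 CPM and all other cells 533 CPM. Over the 12 pigment genes not so used, the 2 kinds were nearly level once 1 cell was left out, at 8571 CPM in the Ttr-rich cells of P19 and 11766 CPM (8891 CPM without 1 cell) in the cells without Ttr, against 504 CPM in all other cells. In WT alone they stood at 11552 and 11184 CPM. Pmel stood at 2806 CPM in the Ttr-rich cells of P19 and at 6086 CPM in the cells without Ttr (log2 ratio 1.11, interval 0.86 to 1.38), but 299 of the 510 UMIs came from 1 cell, without which the ratio was 0.10 (−0.20 to 0.41). Dct, a melanin enzyme, stood at 6255 and 8150 CPM (0.38, 0.20 to 0.57; 0.09 without 1 cell), and in WT alone its direction turned, at 9052 and 7717 CPM. Mlana stood at 490.2 and 1862 CPM (1.90, 1.35 to 2.55). Pmel and Mlana helped to choose the cells, and all of these values are descriptions.

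Several RPE genes that were not used in the choice were at 0 in the cells without Ttr, and others were found there. Of the listed genes, 16 of 22 ion and solute transport genes and 16 of 21 secreted and matrix genes had a UMI in these cells. Slc26a7 stood at 71.6 CPM against 1.88 CPM in all other cells, Krt8 at 119 against 0.213 CPM and Slc4a5 at 227 against 15.4 CPM. Each was found in 6 of the 7 cells, and they were named after their values were seen. Against a floor of 3 UMIs, Enpp2, which encodes the secreted lysophospholipase autotaxin, was at least 67.1-fold lower there than in the Ttr-rich cells of P19, the lactate transporter gene Slc16a8 at least 58.1-fold, the collagen gene Col8a1 at least 74.1-fold, and the amino acid transporter gene Slc6a20a at least 23.1-fold. Ptgds, a secreted prostaglandin synthase and lipid carrier, was found in all 57 cells, at 55109 CPM in the Ttr-rich cells of P19 and 39033 CPM in the cells without Ttr, against 264 CPM in all other cells. Of its 3271 UMIs in the cells without Ttr 2659 came from 1 cell, and the other 6 had 10742 CPM.

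Other genes were higher in the cells without Ttr. Mgst1, a glutathione transferase, stood at 2124 CPM against 152 CPM in the Ttr-rich cells of P19 (3.73, 2.85 to 4.96), the monoacylglycerol lipase gene Mgll at 2661 against 406 CPM (2.69; 1.78 without 1 cell, 1.15 to 2.51), and the gap junction gene Gja1 at 1157 against 592 CPM (0.96, 0.40 to 1.57). Immediate early genes were also higher, with Fos at 2005 against 152 CPM (3.65, 2.76 to 4.87) and Junb at 1897 against 33.8 CPM (5.49, 3.93 to 8.87; 4.30 without 1 cell). Fbln1, which encodes an extracellular matrix protein, and Crhbp, which binds corticotropin-releasing hormone, were at least 16.5-fold and 14.1-fold higher, but each was found in 2 of the 7 cells. The 13 mitochondrially encoded genes made up 129269 CPM in the cells without Ttr and 47739 CPM in the Ttr-rich cells of P19.

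Markers of other pigmented tissue in the eye were looked up in both kinds. Of 7 ciliary body and iris genes in the matrix, 4 had a UMI in the cells without Ttr (33 UMIs, 394 CPM; Zic1 most with 16 in 2 cells) and 0 in the Ttr-rich cells, while Opn5, Myoc and Mcub were at 0 in both. All other cells had 33.6 CPM of this list. In the cells without Ttr 17 of the 33 UMIs came from 1 cell (281 CPM without it), and the 3 KO cells among them had 0. Of 8 melanocyte and Schwann cell genes, Dct gave 1327 of 1418 UMIs in the chosen cells, and RPE expresses Dct and Tyr as well. Erbb3 was at 0 in all chosen cells, Kit and Ednrb were at 0 in the cells without Ttr, and Sox10 and Pax3 had no entry in the matrix. In the visual-cycle genes outside the choice the 7 cells stood near all other cells, which goes against the label of RPE. In Slc26a7, Krt8 and Slc4a5 they stood above all other cells, and the 7 cells are described here only by their genes. The 48 Ttr-rich cells carried RPE genes that the rule did not use.

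Marks of the chosen cells outside the rule were taken as the 15, among genes with at least 50 UMIs in them, with the highest ratio of level in the chosen cells to level in all other cells. They were Serpine3, Ttr, Pon1, Slc16a8, Col8a2, Car12, Cox8b, Cpxm2, Slc6a20a, Tyr, Cltrn, Dct, Thbs1, Gpnmb and Ptgds. Ttr had 8864 UMIs in 50 of 57 cells, 38332 CPM against 9.71 CPM in the other cells, and was found in 1.28% of the endothelial and 1.72% of the microglial cells. Slc16a8 was found in 44 of the chosen cells (77.2%) and in 0.427% and 1.72% of those cells, and Slc6a20a in 41 (71.9%), 1.71% of the endothelial and 0 of the microglial cells. Serpine3, a serine protease inhibitor, was carried by few cells, with 237 UMIs in 10 of the 57 (17.5%).

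The bulk libraries, which the rule did not use, had these genes in the RPE. They held 20133143 to 38409496 counts in RPE and 27443445 to 30443894 in WT retina. A gene was called when the quasi-likelihood test of edgeR, Benjamini-Hochberg adjusted over all genes tested, gave an adjusted p below 0.05 and the fold was at least 1.5. All 15 genes were called higher in WT RPE than in WT retina, where 34.1% of 20009 genes tested were, with log2 fold changes of 6.92 to 9.75 (median 8.75, median of all genes 0.00). The 8 genes of the rule were also all called higher, from 1.15 for Best1 to 9.75 for Rpe65. Ttr stood at 22692, 15021, 21519 and 23140 CPM in the WT RPE libraries 1 to 4 and at 13.0, 27.4, 44.7 and 41.6 CPM in the WT retina libraries. Scaling by library totals alone shifted the median of all genes by −0.26, small beside these fold changes.

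The same was asked of the genes that set the kinds apart, a choice made after their values were seen among genes with at least 60 UMIs in the 2 kinds. Of the 15 genes highest in the Ttr-rich over the cells without Ttr, 4 had defined the kinds, and the other 11 were all called higher in WT RPE than in WT retina (4.75 to 9.75, median 8.33). Of the 15 highest in the cells without Ttr, 9 were called higher, 1 (Fos) lower and 5 neither (−1.91 to 5.38, median 1.44). Fbln1 varied among the WT RPE libraries 1 to 4, at 127, 181, 41.3 and 348 CPM, and Crhbp varied with it, at 25.9, 40.5, 7.51 and 89.4 CPM. Across genes, levels in the Ttr-rich cells followed bulk WT RPE levels per length with a Spearman coefficient of 0.41 (829 genes) and WT retina with 0.10. The cells without Ttr gave 0.20 and 0.12 (566 genes). Genes are not independent replicates, and these coefficients are descriptions.

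Before the bulk genotypes are set beside the cells, 1 bulk library needs mention. WT RPE library 2 had the lowest sum over the 12 visual-cycle genes, 40687 CPM against 55124 to 58327 CPM in the other WT libraries, and the highest sum over 15 rod genes. The rod sums were 1400, 20170, 19196 and 1969 CPM in WT 1 to 4 and 955, 4841, 6882 and 1390 CPM in KO 1 to 4, lower in KO at each replicate number, against 69837 to 76433 CPM in WT retina. All 15 rod genes were detected in the RPE libraries. The part of these rod transcripts in the differences between genotypes was not tested. In bulk tissue, fewer cells of a type and less RNA per cell cannot be told apart.

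In the bulk RPE at P30, 944 of 18989 genes (4.97%) were called between KO and WT, 383 higher (2.02%) and 561 lower (2.95%). Without 1 library the count ran from 563 (without KO 4) to 1677 (without WT 1), and it was 588 without KO 2. Among the 15 genes that marked the chosen cells, 4 rose in KO RPE (Cox8b, Cpxm2, Slc6a20a and Thbs1) and 2 fell (Col8a2 and Serpine3). Without KO 1, KO 2 or KO 4, 2 rose and 1 fell, and without KO 3, 3 rose and 1 fell. Of the 8 genes of the rule 2 fell, Rpe65 and Lrat, against 0 without KO 1 or KO 2, 1 without KO 3 or KO 4, and 3 without WT 2. Bulk values and single-cell values are now given together by the genes' roles, and the shares over all genes, 2.02% higher and 2.95% lower, are the background to each list's counts.

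Rpe65 was among the visual-cycle genes that fell in the bulk RPE. In bulk RPE, 5 of the 12 listed genes fell (median log2 fold change −0.42, all genes −0.02). The count was 1 without KO 1 or KO 2, 2 without KO 3 or KO 4, and 3 without WT 1. Rpe65 (ENSMUSG00000028174) stood at 4578, 2751, 4624 and 4326 CPM in WT 1 to 4 and at 2141, 2079, 2142 and 2150 CPM in KO 1 to 4. It was lower in every KO than in every WT library, 4069.8 ± 889 (SD, n = 4) against 2128 ± 32.9 CPM. By edgeR with Benjamini-Hochberg adjustment it fell by 0.94 on the log2 scale (SE 0.17, adjusted p = 0.0159), a call lost without KO 1 (0.0575), KO 2 (0.0561) or KO 4 (0.0615). Among Ttr-rich cells Rpe65 stood at 1595 (WT) and 1446 CPM (KO) at P19, 2324 and 1013 at P25, and 3677 and 1571 at P30. Without the 1 WT cell with most Rpe65 the log2 ratio of KO over WT went from −0.15 to 0.35 at P19 and from −1.18 to 0.05 at P25. Rpe65 helped to choose these cells, so its levels there describe the cells chosen and support nothing on genotype. At P30 the levels rested on 89 UMIs in 5 WT cells and 26 UMIs in 4 KO cells. A few cells can carry such a sum, so ratios of KO over WT were also taken without the cell with most UMIs on their higher side. This was done for the single genes named below in the Ttr-rich cells, except Serpine3 and Acta2, and not for ratios over all chosen cells. The addition was made after the data were seen, and its result is given where a ratio turned or moved by over 1.5 times.

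Lrat and Rdh10 fell in the bulk RPE as well. Lrat stood at 2632, 1941, 2941 and 2718 CPM in WT and 1502, 1494, 1460 and 1688 CPM in KO, again with no overlap, and fell by 0.74 (edgeR, Benjamini-Hochberg adjusted p = 0.0184). That call was lost without KO 1 (0.0687), KO 2 (0.0604) or KO 3 (0.0560). Rdh10, a retinol dehydrogenase, fell by 0.87 (edgeR, Benjamini-Hochberg adjusted p = 0.0164), a call lost without KO 1 (0.0547), KO 2 (0.0550) or KO 4 (0.0591). In the Ttr-rich cells the log2 ratio of KO over WT of Rdh10, which the rule did not use, was 0.12 (−0.43 to 0.71) at P19, −1.39 (−2.70 to −0.23) at P25 and −0.42 (−1.71 to 0.71) at P30, the last 0.29 without 1 cell. The P25 ratio without 1 cell was −1.04, and its interval (−2.48 to 0.45) held 0. The retinal reductase gene Dhrs3 fell by 0.59 in bulk (edgeR, Benjamini-Hochberg adjusted p = 0.00497), at the fold of 1.5, and it was under that fold without KO 3 (−0.56), WT 1 (−0.53) or WT 2 (−0.55) and with replicate blocks (−0.58). It had 11 UMIs in the chosen cells.

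Rgr, Rdh5 and Ttr were not called. Rgr stood at 16166, 10578, 14712 and 16110 CPM in WT and 10349, 10033, 10012 and 10397 CPM in KO (log2 −0.50; edgeR, Benjamini-Hochberg adjusted p = 0.141), and without WT 2 it was called (−0.61, adjusted p = 0.00206). Rgr in the Ttr-rich cells was at 7672 (WT) and 5590.3 CPM (KO) at P19, 6509 and 3897 at P25, and 11528 and 5801 at P30, which like those of Rpe65 only describe the cells chosen. At P19 1 WT cell gave 113 of 178 Rgr UMIs, and without it the log2 ratio of KO over WT turned from −0.46 to 0.61. Ttr went the other way in bulk, at 13758 to 21668 CPM in WT and 24075 to 25708 CPM in KO when scaled among RPE libraries alone (0.39; edgeR, Benjamini-Hochberg adjusted p = 0.294). In the Ttr-rich cells Ttr had no single direction (−0.82, 0.68 and 0.29, the last −0.12 without 1 cell). Its level parted these cells from the others, so these ratios only describe the cells taken. Rdh5 stood at −0.10 in bulk (edgeR, Benjamini-Hochberg adjusted p = 0.770).

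Pigment genes were called in the bulk RPE about as seldom as all genes (4.97% called). Of the 15 listed, 1 rose and 0 fell (median −0.09). Gpr143, a melanosome receptor, rose from 59.0 ± 11.7 to 101 ± 3.52 CPM (0.78; edgeR, Benjamini-Hochberg adjusted p = 0.0132, n = 4), and had 16 UMIs in 12 of the chosen cells. Pmel was at 639, 608, 501 and 1001 CPM in WT and 578, 479, 313 and 499 CPM in KO (−0.56; edgeR, Benjamini-Hochberg adjusted p = 0.265), with overlapping groups though lower in KO at each replicate number. Tyrp1 and Mlana were at −0.08 and −0.06. In the Ttr-rich cells the pigment list summed to 16853 (WT) and 10458 CPM (KO) at P19, 15342 and 17380 at P25, and 2231 and 6103 at P30. Pmel, Tyrp1 and Mlana on this list helped to choose the cells, so these sums are descriptions. At P25 1 cell gave 102 of the 132 WT UMIs. Without the 1 cell with most pigment UMIs in each group, P19 had 13079 and 8748 CPM and P25 5935 and 16782 CPM. P30 then had 2212 and 4445 CPM. The P30 libraries were lower than the earlier ones in either genotype, and the cells at P30 were sequenced on the other instrument.

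Transporter genes were called in both directions. Among 21 tested ion and solute transport genes, 2 rose and 2 fell in the bulk RPE (median −0.14), beside 2.02% and 2.95% of all genes. These 4 calls were 1 without KO 1 or KO 2, 2 without KO 3, WT 3 or WT 4, 0 without KO 4, and 5 without WT 2. Slc6a20a, a proline and glycine carrier, stood at 734, 488, 715 and 734 CPM in WT and 1127, 1108, 1028 and 1118 CPM in KO. It rose by 0.71 (edgeR, Benjamini-Hochberg adjusted p = 0.0197), a call lost without KO 1 (0.0646), KO 2 (0.0533) or KO 4 (0.0680). Its log2 ratio in the Ttr-rich cells was 0.26 at P19, 0.85 at P25 and 0.95 at P30, each interval holding 0, and at P25 it was −0.07 without 1 cell. Slc6a6, the taurine carrier, fell by 0.75 in bulk (edgeR, Benjamini-Hochberg adjusted p = 0.0135), a call lost without KO 4 (0.0572). Slc16a8, which passes lactate through the basal membrane, was at −0.10 in bulk (edgeR, Benjamini-Hochberg adjusted p = 0.703) and had 257 UMIs in 44 chosen cells.

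Among secreted and matrix genes, Enpp2 was lower in KO at each age and in the bulk RPE. Of 21 tested, 2 rose and 5 fell in the bulk RPE (median −0.15). Those that fell were 3 without KO 2 or KO 3, 2 without KO 4, and those that rose were 1 without any 1 of the KO libraries, WT 3 or WT 4. Enpp2 (ENSMUSG00000022425) stood at 5434, 4230, 6315 and 5365 CPM in WT and 2561, 2567, 2622 and 2842 CPM in KO, and the groups did not overlap. It fell by 1.01 (SE 0.14; edgeR, Benjamini-Hochberg adjusted p = 0.00477). The Ttr-rich cells had 4052 (WT) and 1335 CPM (KO) at P19, 3371 and 312 at P25, and 2892 and 1329 at P30. The log2 ratio was −1.59 (−2.13 to −1.09), −3.29 (−5.40 to −1.92) and −1.10 (−1.88 to −0.41), below 0 at each age. Enpp2 was found in 9 of 9 WT and 10 of 19 KO Ttr-rich cells at P19, in 3 of 4 and 2 of 3 at P25, and in 4 of 6 and 5 of 7 at P30. At P25 the KO value rested on 4 UMIs. At P30 1 WT cell gave 37 of 70 UMIs, and without it the ratio was −0.28 (−1.14 to 0.53).

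Thbs1, the matrix protein thrombospondin-1, rose in the bulk RPE from 1400, 871, 1138 and 1060 CPM to 2604, 2275, 2234 and 2270 CPM (1.07; edgeR, Benjamini-Hochberg adjusted p = 0.00524). Its log2 ratio in the Ttr-rich cells was −0.54 at P19 (0.18 without 1 cell), 1.01 at P25 and 2.33 (0.80 to 4.50) at P30. Col8a2, a collagen of basement membranes, fell by 0.67 in bulk (edgeR, Benjamini-Hochberg adjusted p = 0.0180), and its call was lost without KO 1 (0.0527), KO 2 (0.0561), KO 3 (0.0523) or KO 4 (0.0689). Serpine3 stood at 72.3, 198, 54.0 and 193 CPM in WT RPE and 5.20, 5.25, 2.04 and 10.8 CPM in KO RPE. In the Ttr-rich cells it had 101 UMIs in 1 WT cell and 117 UMIs in 5 KO cells at P19. At P25 it had 19 UMIs in 4 WT cells and 0 in KO, at least 9.44-fold lower, and at P30 it had 0 in either genotype.

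Cox8b, a subunit of cytochrome c oxidase best known from muscle and brown fat, was a mark of the chosen cells that rose in bulk. It stood at 154, 111, 144 and 206 CPM in WT RPE and 449.8, 369, 457 and 463 CPM in KO RPE. The rise was 1.5 on the log2 scale (SE 0.18; edgeR, Benjamini-Hochberg adjusted p = 0.00282). Among Ttr-rich cells it had 27 UMIs (WT) and 53 (KO) at P19, a log2 ratio of 0.33 with 0 inside its interval. At P25 it had 0 UMIs in WT and 60 in KO, at least 13.4-fold higher, but 39 of the 60 came from 1 cell. Taken with a prior count of 0.5, the log2 ratio at P25 was 6.34 (lower limit 3.40). Without that cell it was 5.60 (lower limit 2.55). At P30 it had 5 UMIs in 3 WT cells and 41 in 5 KO cells, a log2 ratio of 3.46 (2.25 to 5.28; 2.66 without 1 cell).

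Of 20 lysosomal and phagocytosis genes 7 were found in more than 28 of the chosen cells. Cd36 and Pros1 were found in 0. In bulk 0 of the 20 were called by edgeR, DESeq2 or limma-voom (median 0.07), where 4.97% of all genes were by edgeR, and 4 had an unadjusted p below 0.05 by edgeR. Without WT 1 edgeR called 1. Ctsd, the protease cathepsin D, had 356 UMIs in 54 of 57 cells, and Psap, the precursor of the saposins, 403 UMIs in 56. In bulk they were at 0.06 and −0.14.

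Lipid and ceramide genes were mostly too sparse for ratios in the cells. Apoe, a lipid carrier, was found in 56 of 57 cells with 2502 UMIs and stood at −0.02 in bulk. Of 20 tested lipid and fuel genes, 2 rose and 4 fell in the bulk RPE (median −0.04). The 4 were 2 without KO 1, KO 4 or WT 3. Mfsd2a, which imports lysophosphatidylcholine carrying docosahexaenoic acid, fell from 59.9 ± 4.12 to 20.4 ± 1.16 CPM (−1.55; edgeR, Benjamini-Hochberg adjusted p = 6.48e-05, n = 4), and Fads1, a fatty acid desaturase, fell by 0.89 (edgeR, Benjamini-Hochberg adjusted p = 8.18e-04). They had 4 and 13 UMIs in the chosen cells, too few to compare.

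AdipoR1 has been linked to ceramidase activity, and the 18 ceramide genes were listed for that reason. Adipor1 itself fell in the bulk RPE, from 409 ± 48.7 to 145.5 ± 5.80 CPM (−1.49; edgeR, Benjamini-Hochberg adjusted p = 2.07e-04, n = 4), and the other 17 were not called by edgeR, DESeq2 or limma-voom, with 3 of them at an unadjusted p below 0.05 by edgeR. In the chosen cells Adipor1 had 24 UMIs in 14 cells, split as 4, 2, 1, 2, 13 and 2 over WT P19, KO P19, WT P25, KO P25, WT P30 and KO P30. Of the 13 in WT P30, 8 came from the cell with little Ttr, and a difference in Adipor1 between genotypes was not detectable in the chosen cells at this depth. Adipor2, the related receptor, had 18 UMIs in 15 cells and stood at −0.25 in bulk (edgeR, Benjamini-Hochberg adjusted p = 0.230). The dihydroceramide desaturase gene Degs1 had the most UMIs of the list, 147 in 38 cells, and was at −0.11 in bulk. The list summed in the Ttr-rich cells to 2284 (WT) and 1724 CPM (KO) at P19, 1976 and 1637 at P25, and 1859 and 1934 at P30, and the intervals overlapped at each age.

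Transcription factor genes of the RPE and genes of epithelial structure were sparse. Otx2, a regulator of RPE and photoreceptor fate, had 48 UMIs in 29 chosen cells and was at 0.00 in bulk, and Mitf, the regulator of pigment genes, had 5 UMIs in 4 Ttr-rich cells and 6 UMIs in 3 cells without Ttr. Of 9 such factors tested in the bulk RPE 0 were called by edgeR, DESeq2 or limma-voom (median −0.29), with 3 at an unadjusted p below 0.05 by edgeR. Of 14 epithelial genes 2 fell (median 0.04), or 1 without any 1 of the RPE libraries but WT 3, and 2 rose without WT 1. One was Crb2, which encodes an apical polarity protein and fell by 0.88 (edgeR, Benjamini-Hochberg adjusted p = 0.00784), with 4 UMIs in the chosen cells. The keratin gene Krt18 was found in 45 of the 57 cells.

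Injury and inflammation genes were called in part in the bulk RPE. Of 21 tested, 9 rose (median 0.83), or 7 without KO 2, KO 3, KO 4 or WT 4, beside 2.02% of all genes, and the list summed to 3805, 3154, 3385 and 3590.4 CPM in WT and 5437, 5648, 5186 and 5615 CPM in KO. C4b, a complement component, rose from 31.0 ± 12.6 to 827 ± 25.4 CPM (4.74; edgeR, Benjamini-Hochberg adjusted p = 2.27e-04, n = 4), and had 7 UMIs in 4 chosen cells. In the same libraries 11 of 12 microglial genes rose (median 1.72), and their part in the bulk values of this list was not tested. The metallothionein gene Mt1 gave most UMIs of the list in the cells, 1264 in all 57, and stood at 0.45 in bulk, under the fold needed. In the Ttr-rich cells the list summed to 8103 (WT) and 10819 CPM (KO) at P19, 11506 and 10677 at P25, and 11652 and 20726 at P30. Without the 1 cell with most UMIs of the list in each group, P19 had 7501 and 10355 CPM and P25 9536 and 8538 CPM. P30 then had 8684 and 15935 CPM. The other cells of the libraries had 742, 2210, 757, 3410, 792 and 3703 CPM in the order WT P19, KO P19, WT P25, KO P25, WT P30 and KO P30, higher in KO at each age, and their part in the values of the Ttr-rich cells was not tested.

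A2m, the protease inhibitor alpha-2-macroglobulin, lies outside the lists and was chosen after its values were seen. In the bulk RPE it stood at 692, 501, 681 and 741 CPM in WT and 6398, 6771, 7040.2 and 6792 CPM in KO. It rose by 3.37 (SE 0.15; edgeR, Benjamini-Hochberg adjusted p = 5.56e-05). In the Ttr-rich cells it was already at 1940 (WT) and 2197 CPM (KO) at P19, a log2 ratio of 0.17, and at 2557 and 3585 CPM at P25, a ratio of 0.47, both −0.27 without 1 cell. At P30 it had 1 UMI in WT (41.3 CPM) and 15 in KO (906 CPM), a log2 ratio of 3.92 (1.75 to 9.85).

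**Figure D3:**
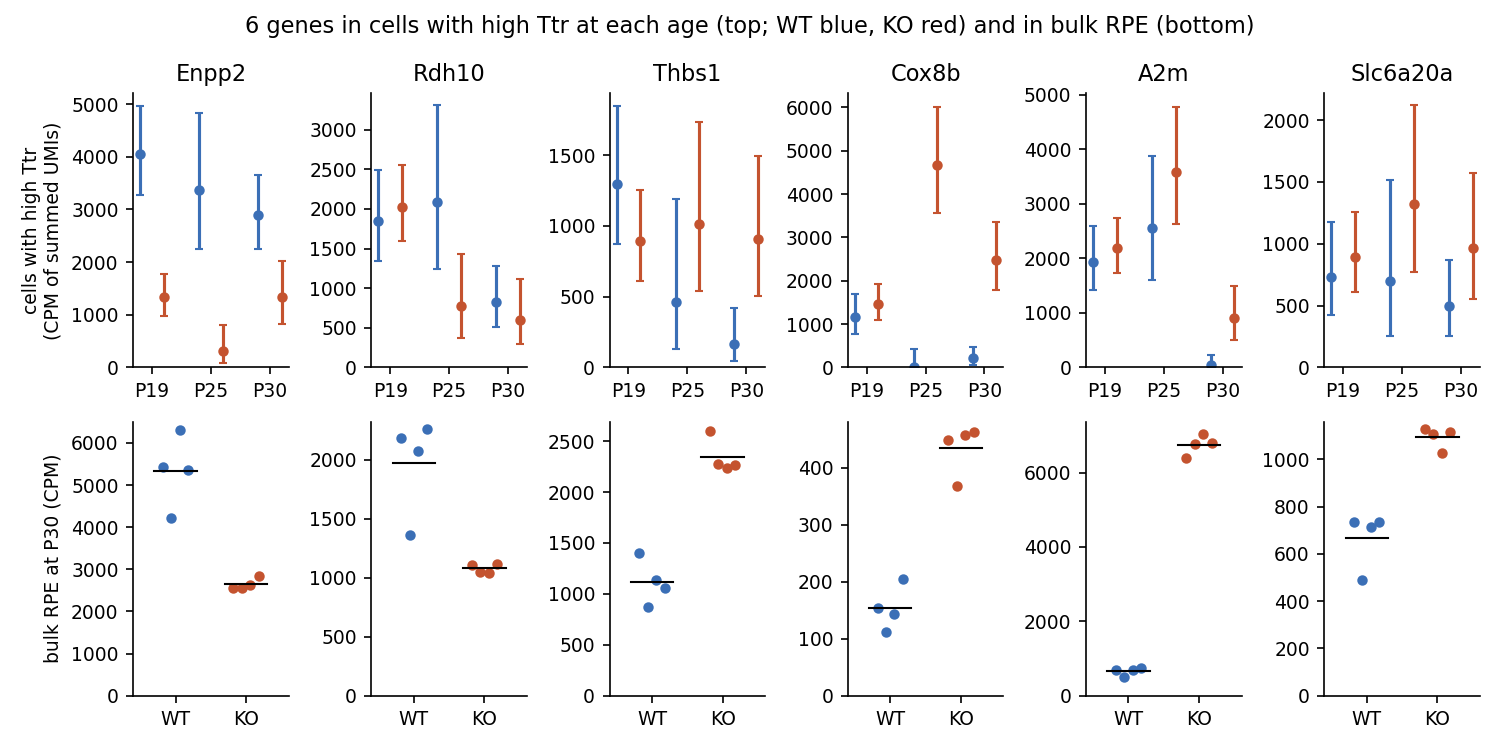
Levels of 6 genes in the Ttr-rich cells of each single-cell library (top, CPM of summed UMIs with 95% exact Poisson intervals) and in the 4 bulk RPE libraries per genotype at P30 (bottom, CPM, bar at the mean), WT in blue and KO in red. Enpp2 is lower in KO at each age and in bulk, with a log2 ratio of −0.28 (−1.14 to 0.53) at P30 without 1 cell. Rdh10 is lower in bulk and at P25, where its log2 ratio is −1.04 (−2.48 to 0.45) without 1 cell. At P30 the log2 ratio of Rdh10 is −0.42 (−1.71 to 0.71), and 0.29 without 1 cell. A2m is nearly level at P19 and Cox8b parts at P25 and P30.

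At P19, the only age with at least 10 chosen cells in both genotypes, the genes that stood out between KO and WT differed with the kinds of cell included. Genes with at least 60 UMIs over the chosen cells of all ages were ranked. Over all chosen cells of P19 (22 KO, 14 WT) the 6 highest in KO were Col8a2, Car2, Crim1, Stra6, Tmem56 and Sema3c. The 6 lowest were Calb2, Fbln1, Crhbp, Acta2, Pcp4 and Snhg11. Col8a2 had 28 UMIs in KO and 8 in WT (log2 2.78, 1.67 to 4.19). Crim1, a membrane protein that binds bone morphogenetic proteins, had 53 and 20 (2.42, 1.68 to 3.26), and Stra6, which takes retinol into the cell, had 40 and 16 (2.33, 1.49 to 3.30). Among the Ttr-rich cells (19 KO, 9 WT) the same ratios were 1.11 (0.00 to 2.52) for Col8a2, 1.25 (0.42 to 2.25) for Crim1 and 0.68 (−0.19 to 1.68) for Stra6. In the bulk RPE at P30, Col8a2 fell, and Crim1 and Stra6 were at −0.01 and −0.34.

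On the lower side, few cells carried the values of Calb2, Fbln1, Crhbp and Acta2. Pcp4 had 138 UMIs in WT, 48 of them outside the cells without Ttr, and Snhg11 had 40, 28 of them outside those cells. Calb2 had 0 UMIs in KO and 181 in WT, at least 29.4-fold lower, and 171 of the 181 came from 1 cell with little Ttr. Fbln1 had 0 and 70 UMIs, at least 11.4-fold lower, and Crhbp 0 and 60, at least 9.74-fold lower, and both came from 2 of the cells without Ttr. The Ttr-rich cells had 0 UMIs of Fbln1 and Crhbp in either genotype. Acta2, smooth muscle actin, was at −4.16 (−7.54 to −2.58) over all chosen cells and at −0.63 (−4.42 to 3.15) over the Ttr-rich cells, where it had 2 UMIs in each genotype. Restricted to the Ttr-rich cells, a choice made after the data were seen, Enpp2 was the second lowest in KO. That rank is among genes with at least 60 UMIs in the Ttr-rich cells of all ages. Across 269 genes, log2 ratios at P19 in the Ttr-rich cells and those of the bulk RPE at P30 had a Spearman coefficient of 0.01, with ages that differ.

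At the later ages more of the bulk directions were shared, on few cells. Of 262 genes that were not used to choose or part the cells, had at least 60 UMIs in the Ttr-rich cells and were tested in the bulk RPE, 26 were called there (9.92%), 9 higher and 17 lower, and 7 of the 17 encode ribosomal proteins. The bulk direction was shared at P19 by 12 of the 26 (46.2%), beside 126 of all 262 genes (48.1%). At P25 it was shared by 20 of 26 (76.9%), beside 149 of 260 (57.3%), and at P30 by 19 of 25 with a UMI (76%), beside 130 of 261 (49.8%). Without the ribosomal protein genes it was shared by 8 of 19 at P19 (97 of all 207 genes), 18 of 19 at P25 (117 of 205) and 16 of 18 at P30 (108 of 206). At P30 the median log2 ratio of the genes called higher was 1.47 and of those called lower −0.35, against 0.02 for all of these genes. In the same order the medians were 0.47, −0.07 and −0.13 at P25, and −0.06, −0.03 and −0.03 at P19. At all 3 ages 7 of the 26 kept the bulk direction (26.9%), beside 37 of all 262 genes (14.1%). They were A2m, Cox8b and Slc6a20a upward and Rpl28, Mt3, Slc24a1 and Enpp2 downward. Without the 1 cell with most UMIs on the higher side of each ratio, 2 of the 7 kept it, namely Cox8b and Enpp2. Each age had 1 library per genotype, so these counts are descriptions.

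Transcripts of other retinal cells were present in the chosen cells at different levels. The 15 rod genes, all found, summed in the Ttr-rich cells to 9957 (WT) and 6898 CPM (KO) at P19, 3138 and 1481 at P25, and 11858 and 26225 at P30. The other cells of the same libraries had 7645 and 7124 CPM at P19, 6904 and 13401 at P25, and 48180 and 44910 at P30. Single cells carried much of this. Without the 1 cell with most rod UMIs in each group the levels were 6037 and 4765 CPM at P19, 1627 and 800 CPM at P25, and 9276 and 13098 CPM at P30, and in KO at P30 that cell gave 288 of 434 UMIs. The part of rod transcripts in the P30 ratios given above was not tested. Müller glia genes (9 of 10 found, Glul most) summed to 1527 CPM over the chosen cells and 3017 CPM in all other cells, bipolar genes (10 of 10, Trpm1 most, which is on the pigment list too) to 1397 and 2385 CPM, amacrine genes (8 of 8, Pax6 most) to 752 and 1680 CPM, and cone genes (9 of 9, Gnb3 most) to 372 and 3677 CPM. Of 12 microglial genes 3 were found, with 13 UMIs of which Csf1r gave 11, and C1qa, C1qb, Cx3cr1 and Tyrobp were at 0. Of 8 endothelial genes 2 were found, with 6 UMIs, and of 7 fibroblast genes 2, with 10 UMIs. The Müller glia list holds Aqp4 and the endothelial list Cldn5, both at 0 in the chosen cells by the rule. The counts and levels of these lists were therefore set in part by the choice. Of 8 pericyte and smooth muscle genes 4 were found, with 179 UMIs (774 CPM, against 491 CPM in all other cells), and Acta2 was the most abundant with 95. The cells without Ttr had 1575 CPM of that list, with 89 UMIs of Acta2 and 40 of Myl9, each in 2 of the 7 cells and most of it in 1, and Pdgfrb, Rgs5, Cspg4 and Abcc9 were at 0 in all chosen cells. In the bulk RPE, by contrast, 11 of the 12 microglial genes rose in KO (median 1.72). The 12 summed to 631, 416, 559.8 and 586 CPM in WT and 752, 823, 845 and 837 CPM in KO, with none at 0. Csf1r, the 1 not called, was the most abundant, with a mean of 520 CPM over the RPE libraries. Lens genes reached 417 and 805 CPM in WT RPE 2 and 4 and 17.9 to 39.9 CPM in the other RPE libraries, and 2 of 8 fell in KO, 1 without KO 2, KO 3 or KO 4 and 6 without WT 1. The part of these transcripts in the bulk differences was not tested.

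Promoters are shown of the pigment genes Tyrp1 and Dct, which both kinds of cell carried. Those of Rpe65 and Rgr, which were at 0 in the cells without Ttr, are shown beside them. For Tyrp1, Rpe65 and Rgr the way the cells were chosen and parted shaped this split, so it is no finding. RefSeq promoters (build GRCm38.p6, 250 bases before to 50 after the start) matched 6 of the 8 genes of the rule, and Pmel and Mlana had no entry. Motifs looked for on both strands were CATGTG and CACGTG, 2 forms of the E-box that MITF and related factors bind, and TAATCC, which OTX2 and CRX bind. Among 32851 promoters, 14.2% hold CATGTG, 7.15% CACGTG and 7.06% TAATCC. Of the 6 matched, CATGTG was in 3 (Rpe65, Rgr and Tyrp1), TAATCC in 4 (Rpe65, Rgr, Best1 and Tyrp1) and CACGTG in 0. Among other genes looked up, Serpine3, Slc16a8, Col8a2 and Cox8b held none of the motifs, as did Lrat and Rdh5 of the rule. Tyr held CATGTG alone, and the promoters of Trpm1 together held all of them. The promoters shown are ones that hold both CATGTG and TAATCC. A match is a description of the letters and not a site. Capitals mark the matches, and the regions are chr4:80833963-80834262 (plus strand) for Tyrp1, chr14:118052197-118052496 (minus) for Dct, chr3:159598931-159599230 (plus) for Rpe65 and chr14:37048965-37049264 (minus) for Rgr.
Tyrp1: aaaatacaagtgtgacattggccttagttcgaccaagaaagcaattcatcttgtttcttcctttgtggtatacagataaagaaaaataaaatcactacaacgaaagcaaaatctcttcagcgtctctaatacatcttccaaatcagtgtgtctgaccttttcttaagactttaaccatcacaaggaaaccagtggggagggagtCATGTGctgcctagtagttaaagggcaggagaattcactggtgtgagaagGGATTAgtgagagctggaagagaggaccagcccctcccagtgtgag
Dct: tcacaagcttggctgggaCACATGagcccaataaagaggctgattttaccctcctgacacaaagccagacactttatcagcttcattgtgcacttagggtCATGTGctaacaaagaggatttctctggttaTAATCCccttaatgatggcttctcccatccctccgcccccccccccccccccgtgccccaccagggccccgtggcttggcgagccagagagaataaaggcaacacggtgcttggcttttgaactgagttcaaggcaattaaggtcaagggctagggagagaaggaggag
Rpe65: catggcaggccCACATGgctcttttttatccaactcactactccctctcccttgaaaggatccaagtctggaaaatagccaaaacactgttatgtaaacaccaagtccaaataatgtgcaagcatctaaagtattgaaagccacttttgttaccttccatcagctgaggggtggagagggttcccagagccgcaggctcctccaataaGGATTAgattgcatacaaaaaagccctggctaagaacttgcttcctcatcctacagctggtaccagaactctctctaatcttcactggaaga
Rgr: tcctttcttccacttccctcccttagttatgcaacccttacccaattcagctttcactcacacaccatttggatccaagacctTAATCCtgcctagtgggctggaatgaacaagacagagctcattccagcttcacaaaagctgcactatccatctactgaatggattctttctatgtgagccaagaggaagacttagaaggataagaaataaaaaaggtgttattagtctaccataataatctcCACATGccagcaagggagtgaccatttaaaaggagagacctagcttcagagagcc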

How the data were processed

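The deposited bulk tables hold raw read counts per gene (53801 genes). The deposited single-cell matrix holds natural log values, which the authors made by scaling each cell to 10000 and taking ln(1 + x), and the values show that this step was applied 2 times. Undoing both steps gave whole UMI counts, to within 0.01, for 99.99998% of values (19324 genes, 26764 cells). The submitters' processing notes name Cell Ranger 2.1, Seurat 3.2.2, edgeR 3.20.9 and the build mm10 without roles, and the sources used here name no bulk aligner.

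Bulk libraries were compared in R 4.3.3 with edgeR 4.0.16 (TMM, filterByExpr, quasi-likelihood test, Benjamini-Hochberg over all genes tested), with limma 3.58.1 and DESeq2 1.42.0 as alternatives, and the tests were tried on simulated data first. Deviations from the group means in KO and WT RPE libraries of 1 replicate number correlated at 0.587, 0.559, 0.716 and 0.335, all above 0.1. The numbers were therefore taken to pair them, and a replicate block was tried, although number 4 did not correlate best with its own number. The numbers also shared levels of 6 sex-linked genes, Xist most. These summed to 161 to 182 CPM in RPE libraries 1 and 2 and 651 to 848 CPM in 3 and 4, over both genotypes. A test over ages on summed cells was not run, since by the plan it took ages at which both genotypes had at least 10 chosen cells, and only P19 did. Single-cell intervals are exact (Poisson, Clopper-Pearson or conditional binomial, 95%), ratios use a prior count of 0.5, and levels at 0 are read against a floor of 3 UMIs per group of cells summed. No doublet caller was run.

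Named genes were the 8 of the rule, the 15 highest over other cells, Adipor1, Adipor2 and the ceramide genes, the 6 highest and 6 lowest at P19, the 5 most raised and 5 most lowered in bulk RPE, from each RPE list the 3 with the smallest bulk p and the 2 with most UMIs, the top member of each other list, and Xist and Ddx3y. Genes that set the kinds of cell apart were chosen after their values were seen, as was the division at 20 Ttr UMIs per 10000. Members and lists were chosen with earlier results of these data known.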

Additional observations from a re-analysis of the deposited data

Results flagged for a closer look

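The 4 bulk RPE libraries of a genotype were looked at for 44 genes and 8 summed lists, which made 104 groups of values. In 10 of them a library lay far from the other 3 (its gap to the nearest one, over the range of the 4, was past Dixon's 95% critical value). Chance gives about 1 in 20 such groups. WT 2 was the library in 4 of the 10. There Rpe65 was at 2751 CPM (others 4326 to 4624), Slc16a1 at 759.2 CPM (1108 to 1150.0), Slc6a20a at 488 CPM (715 to 734) and Crim1 at 693 CPM (1110.5 to 1126), each below the other WT libraries.

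Among the KO RPE libraries, Rpe65 was at 2079 CPM in KO 2 (2141 to 2150), and Cox8b at 369 CPM there (449.8 to 463). KO 3 had Dhrs3 at 92.6 CPM (100.5 to 101.2) and Best1 at 0.605 CPM (1.08 to 1.14). Thbs1 was at 2604 CPM in KO 1 (2234 to 2275), and Mfsd2a at 22.1 CPM in KO 4 (19.7 to 19.9).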

How the results depend on the processing

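The count of genes called between KO and WT in the bulk RPE was 944. DESeq2 gave 1441 and a fit of all 16 bulk libraries 1571. Other settings gave 882 to 1278, and leaving out each library in turn gave 563 to 1677. With the replicate number as a replicate block it was 934. Between WT RPE and WT retina the count was 13244, with 13124 to 16383 over all alternatives and 13185 in the paired fit, where deviations from the group means in libraries of 1 number correlated at 0.084, 0.163, 0.137 and 0.195. The causes of these shifts were not tested.

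The share of chosen cells, 0.213%, was 0.291% with at least 3 of the 8 genes, 0.127% with at least 5, and 0.141% with each cell thinned to 1000 UMIs. The last leaves out 4006 cells with fewer UMIs, and the cells left in gave 0.220% before thinning, a setting added after seeing the data. It was 0.250% without the condition on Aqp4 and Cldn5 and 0.187% without the cells without Ttr, likewise added.

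Direction was compared only where a gene was called in the main or the other fit. Of 44 single-gene bulk fold changes, all 44 kept their call, and direction where compared, with DESeq2's size factors and 43 with library totals. With the replicate block 41 did, Dhrs3 and Tmem56 were no longer called, and 1 gene gained a call. Of 48 levels of single genes at P19, 36 moved beyond their counting interval with at least 5 genes, 22 without the deepest cells, and 38 both without the cells without Ttr and in the Ttr-rich cells alone, the last 2 settings added after seeing the data. Of 101 values of single genes and lists in the kinds of cell, 37 moved beyond it without the 1 cell with most UMIs, also added then. The test over ages was not run, nor were its other settings. Depth limits the cells: at P25 the 3-UMI floor was 349 CPM in WT and 234 CPM in KO.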

Other observations

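Outside the rule, 22 cells that it did not choose had at least 20 Ttr UMIs per 10000 (780 to 6261 UMIs, median 1454.5). Their other genes were not analysed here.

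Proliferation genes differed between the bulk RPE and the chosen cells. In the bulk RPE 8 of 14 rose in KO by edgeR with Benjamini-Hochberg adjustment (median log2 1.24), beside 2.02% of all genes. DESeq2 called 12. By edgeR the count was 12 without WT 1, 6 without WT 2, 3 without KO 1, KO 4 or WT 3, 4 without WT 4, and 5 without KO 2 or KO 3. Their sums were 61.4, 39.2, 38.4 and 44.6 CPM in WT 1 to 4 and 116, 80.9, 84.7 and 105 CPM in KO 1 to 4. In the chosen cells 2 of 13 such genes were found, with 1 UMI each. The part of cells other than RPE in the bulk values was not tested.

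Genes known to respond to tissue dissociation differed between the kinds of cell. The 14 genes of that list summed to 2044 CPM in the Ttr-rich cells (2772 CPM at P19), 11277 CPM in the cells without Ttr and 6813 CPM in all other cells, with 540 of the 945 UMIs in the cells without Ttr from 1 cell (7109 CPM without it) and Hsp90aa1 the most abundant over the chosen cells.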
